A study of Mus musculus with 8 samples.

Results

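The Mediator subunit genes are the 30 mouse genes with a RefSeq mRNA whose symbol is Med followed by a number, with Med12l and Med13l, out of 21000 genes with a RefSeq mRNA on chromosomes 1 to 19, X and Y. They were chosen by symbol. ATAC-seq, in which the Tn5 transposase cuts open chromatin, had been run on nuclei of brown adipose tissue (BAT) from 2 WT and 2 Dot1l-BKO mice, aged 12 weeks, fed chow and kept at 4°C for 4 hr before collection. WT mice carried floxed Dot1l without Cre, and Dot1l-BKO mice carried the same floxed allele with Ucp1-Cre. The Cre acts in Ucp1+ cells, so that other cells of the tissue keep Dot1l, the H3K79 methyltransferase. The values are positions and scores of 32173 peak summits in a single list made from all 4 libraries, in which a score is the -log10 of the MACS2 q-value of a peak.

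The list holds no value per library. Depth is unknown, the deletion of Dot1l could not be checked, and no gene could be compared between the genotypes. The label of the list names the WT libraries, then "vs", then the Dot1l-BKO libraries. It does not state whether one genotype was set against the other as the control in MACS2, or which, and this is not known here. A summit is therefore read below only as an entry in this list, and a missing summit as neither closed chromatin nor a lack of difference between genotypes. For the same reason the list could not check the tissue label, and marker genes are given as a description. A summit lay within 1 kb of a transcription start site (TSS) at 11 of 12 brown adipocyte genes, Adrb3 being the exception. Among genes of other cells this held for 1 of 4 endothelial genes (Cdh5), 1 of 4 macrophage genes (Cd68), 1 of 3 fibroblast progenitor genes (Pdgfra), 0 of 4 skeletal muscle genes and 0 of 4 neuronal genes, against 45.2% of all genes. Within 10 kb, where 53.9% of all genes had a summit, it held for 12 of 12 brown adipocyte, 3 of 4 endothelial, 1 of 4 macrophage, 3 of 3 fibroblast progenitor, 0 of 4 muscle and 0 of 4 neuronal genes. In the gene body (39.7% of all genes) the counts were 12, 3, 1, 3, 0 and 2, in the same order. In libraries of bulk tissue the number of nuclei of a cell type and the open chromatin per nucleus cannot be told apart, and no count here is read as either.

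Mediator is a large protein complex that carries signals from DNA-bound transcription factors to RNA polymerase II. Its head and middle modules contact the polymerase, its tail module is contacted by many activators, and Med14 is the scaffold that joins them. A kinase module, made of Med12 or Med12l, Med13 or Med13l, cyclin C and Cdk8 or Cdk19, binds reversibly and keeps the polymerase from docking. In brown fat Med1 is a partner of nuclear receptors and of Prdm16.

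Mediator promoters were for the most part in the list. A summit lay within 1 kb of a TSS at 24 of 30 genes (80.0%, 95% Wilson interval 62.7% to 90.5%), against 45.2% of all genes. The middle module was complete, with 9 of 9 genes (Wilson interval 70.1% to 100%). The head module had 6 of 7 (85.7%, 48.7% to 97.4%), the tail 6 of 9 (66.7%, 35.4% to 87.9%) and the kinase genes named Med 2 of 4 (50%, 15.0% to 85.0%), and the single scaffold gene had a summit. The other genes, Med6, Med24, Med27, Med28, Med12 and Med13l, had no summit there. The intervals of the modules overlap and cover counting error only, so that no difference between modules can be read from these counts.

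**Figure D1:**
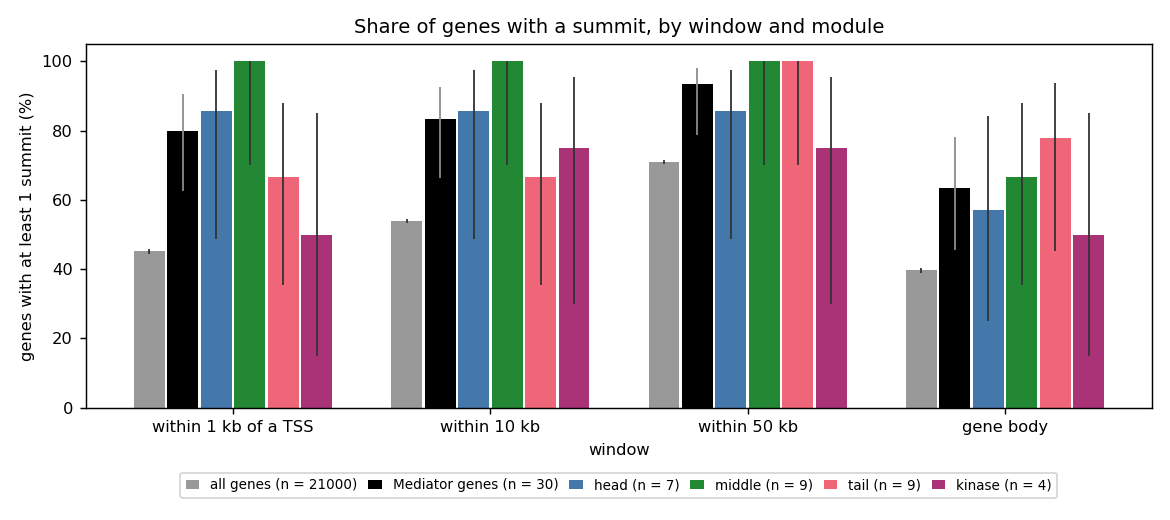
Share of genes with at least 1 summit (vertical axis, %) within 1 kb, 10 kb and 50 kb of a TSS and in the gene body, for all 21000 genes, the 30 Mediator genes and 4 modules; lines are 95% Wilson intervals. Within 1 kb the middle module stood at 100% and the 4 kinase genes named Med at 50%, with overlapping intervals.

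Sequences before the TSS are shown for the highest promoter score of the head, the tail and the kinase genes named Med. The distance of each summit from the TSS is given after them. Bases are from the mm10 reference, 5′ to 3′ on the strand of the gene, and capitals mark matches to the short patterns listed further on. The first 3 windows hold the 150 bases up to the TSS. For Med11 this is chr11:70451768-70451917 on the plus strand, for Med23 chr10:24869836-24869985 on the plus strand, and for Med13 chr11:86357597-86357746 on the minus strand. The last is the 101 bases centred on the Med13 summit, chr11:86358364-86358464 on the minus strand. The same windows of Med31 and Med14, the highest of the middle and scaffold modules, overlap annotated exons and are not shown.
Med11: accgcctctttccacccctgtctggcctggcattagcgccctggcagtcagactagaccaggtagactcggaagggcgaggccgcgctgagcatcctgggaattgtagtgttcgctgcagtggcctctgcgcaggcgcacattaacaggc
Med23: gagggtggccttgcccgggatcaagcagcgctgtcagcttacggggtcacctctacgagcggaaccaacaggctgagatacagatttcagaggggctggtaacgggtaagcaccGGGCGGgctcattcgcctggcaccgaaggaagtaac
Med13: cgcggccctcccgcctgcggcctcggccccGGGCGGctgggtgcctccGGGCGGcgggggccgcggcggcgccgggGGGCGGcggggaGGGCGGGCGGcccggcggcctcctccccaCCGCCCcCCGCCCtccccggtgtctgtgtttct
Med13 summit: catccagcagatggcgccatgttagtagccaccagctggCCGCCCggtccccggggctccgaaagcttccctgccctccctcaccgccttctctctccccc
The Med23 summit fell inside its window, at -45 bp from the TSS and 9 bases before the capitals. The Med11 summit lay 235 bp past the TSS. In Med13, 7 matches to the SP/KLF pattern stood within 150 bases of the TSS, in a window of 87.3% GC, and the summit was not there but at -818 bp.

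In the head module, which contacts the polymerase and the general transcription factors, Med11 had the highest score, 35.0 at rank 1192 of the 32173 summits. The summit was in intron 1 of this gene of 1.815 kb (chromosome 11 from 70451918 to 70453732, plus strand). Med22 followed with a score of 23.8, at 92 bp downstream of its TSS in the 5′ UTR of exon 1. Med17, a core subunit of the head, had a summit with a score of 14.0 at 72 bp downstream in the 5′ UTR and one of 2.15 at -991 bp. Med18 had a score of 10.9 at 41 bp downstream, Med20 one of 6.58 at -335 bp and Med8 one of 5.07 at -74 bp. All 6 head genes with a promoter summit thus had a score of at least 5. So did 19 of the 24 Mediator genes and 7587 of the 9485 genes in all with such a summit. No trait of the head module is read from this. Med6 (chromosome 12 from 81573557 to 81595008, minus strand) had none, and its nearest summit on the chromosome was 109949 bp away.

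The middle module links the head to the rest of the complex and holds Med1 and Med26, which is contacted by elongation factors. Its scores ran from 4.16 to 34.5. Med31 had 34.5 at 49 bp downstream of the TSS, Med19 had 33.3 at -142 bp and Med26 had 20.2 at -128 bp. Med21 (17.8 at -28 bp) and Med7 (15.4 at 20 bp downstream) were also above the median of all genes with a promoter summit. The other 4 were lower. Med1 (chromosome 11 from 98152154 to 98193293, minus strand) had a score of 6.02 at 81 bp downstream of its outer TSS, at rank 12417, a score that 1236 summits of the list share. Med10 had 5.18 at 485 bp downstream in an intron, Med9 had 4.61 at -32 bp, and Med4 had 4.16 at -76 bp. Med9 also had higher-scoring summits outside the promoter window whose nearest TSS was its own, among them one of 16.0 at -6684 bp and one of 49.1 at -45843 bp, at rank 574.

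In the tail module 2 of 9 genes had a promoter score of at least 10. Med23, a subunit contacted by Elk1 and other activators, had the highest promoter score of the whole family, 37.6 at rank 1013. Med29 had 23.1 at -166 bp, where the TSS of Paf1 was nearer, at 140 bp, and a second summit of 4.16 at 515 bp downstream. The remaining scores were 7.90 for Med16 at 552 bp downstream, 6.53 for Med15 at 108 bp downstream, 3.32 for Med25 at -102 bp and 2.54 for Med30 at 535 bp downstream. Med24, Med27 and Med28 had no summit within 10 kb of a TSS. The summit nearest the Med24 TSS was at -13789 bp, where the gene of the nearest TSS was Thra. The one nearest the Med28 TSS was at -26884 bp, 29 bp from the TSS of Lap3. Med27, a gene of 177.981 kb, had its nearest summit 48609 bp downstream, in an intron, with a score of 2.09. Med27 to Med30 are placed with the head in some accounts. Counted so, 8 of 11 head genes (72.7%) and 4 of 5 tail genes (80.0%) had a promoter summit, which turns the order of head and tail.

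The scaffold gene Med14 (chromosome X from 12675371 to 12761973, minus strand) had a summit at -16 bp with a score of 14.7. In the kinase module, taken here as its 4 genes named Med, Med13 had 5.07 at -818 bp and Med12l had 2.15 at 160 bp downstream in intron 1. Med12, also on chromosome X (101274091 to 101298934, plus strand), had no summit within 50 kb, with its nearest at -51464 bp. On chromosome X as a whole 12.6% of genes had a promoter summit, and of the Mediator genes there 1 of 2 did. Med13l had a summit just past the window, at -1034 bp with a score of 4.16. When predicted RefSeq mRNAs were included, Med13l was counted as well. The partners of the module that are not named Med each had a promoter summit. Cdk19 had a score of 27.7 at -83 bp, Ccnc, the cyclin C gene, 15.4 at -8 bp, and Cdk8 8.65 at -277 bp. Each of these scores lay above both promoter scores of the 4 Med kinase genes. With the partners counted in, a choice made after seeing the data, 5 of 7 kinase genes (71.4%) had a promoter summit, with a median score of 8.65. Cdk8 also held a summit in intron 2 with a score of 25.0.

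**Figure D2:**
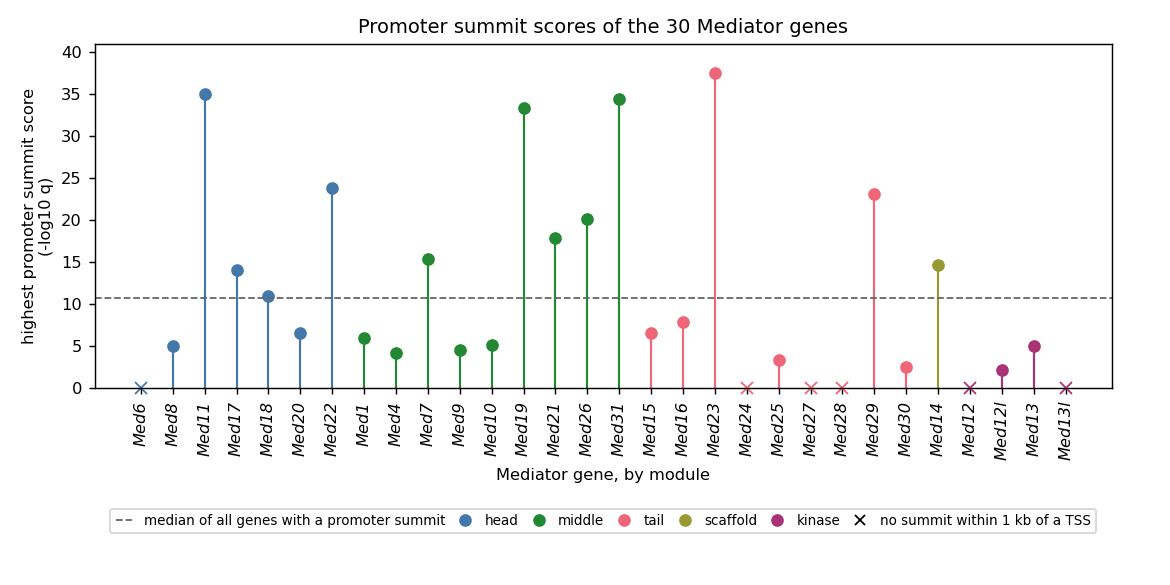
Highest score (vertical axis, -log10 q) of a summit within 1 kb of a TSS for each Mediator gene (horizontal axis, coloured by module); crosses are the 6 genes with no such summit, and the dashed line is the median of all genes that have one, 10.7. Scores ran from 2.15 in Med12l to 37.6 in Med23, and both kinase genes named Med with a summit lay below the dashed line.

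Over the 24 genes with a promoter summit the median of the highest score was 9.42 (quartiles 5.07 and 20.9). The 9485 genes of the genome with a promoter summit had a median of 10.7 (quartiles 5.55 and 20.9). By module the median was 12.5 in the head, 15.4 in the middle, 7.22 in the tail and 3.61 over the 2 kinase genes named Med. A score of at least 10 was reached by 12 of 30 Mediator genes (40.0%), 5 of them in the middle, 4 in the head, 2 in the tail, none of the kinase genes named Med, and Med14. Of all genes 23.5% reached it. Among genes with a promoter summit the counts were 12 of 24 for Mediator and 4944 of 9485 for all genes. Mediator genes with a summit thus did not reach this score more often than others with one. Scores repeat often in this list, and 95.3% of summits share theirs with another summit. Med8 and Med13, for instance, have a score that 799 summits hold. Small differences between members therefore give no order.

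Promoter summits sat close to the start site, at Mediator genes as over all genes. The highest one per Mediator gene lay at a median of 97 bp from a TSS, against 143 bp over all genes with a promoter summit. It was within 100 bp at 12 of the 24 genes (50%, against 38.2% of all such genes), and 12 lay upstream and 12 downstream. On 24 genes and without an interval, no difference from all genes is read from these values. Only Med15, Med17 and Med29 had more than 1 summit in the window. Downstream summits of the head and middle modules were mostly in the 5′ UTR of exon 1 (Med17, Med18, Med22, Med1, Med7, Med31), whereas those of Med11, Med10, Med16, Med30 and Med12l lay in introns.

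**Figure D3:**
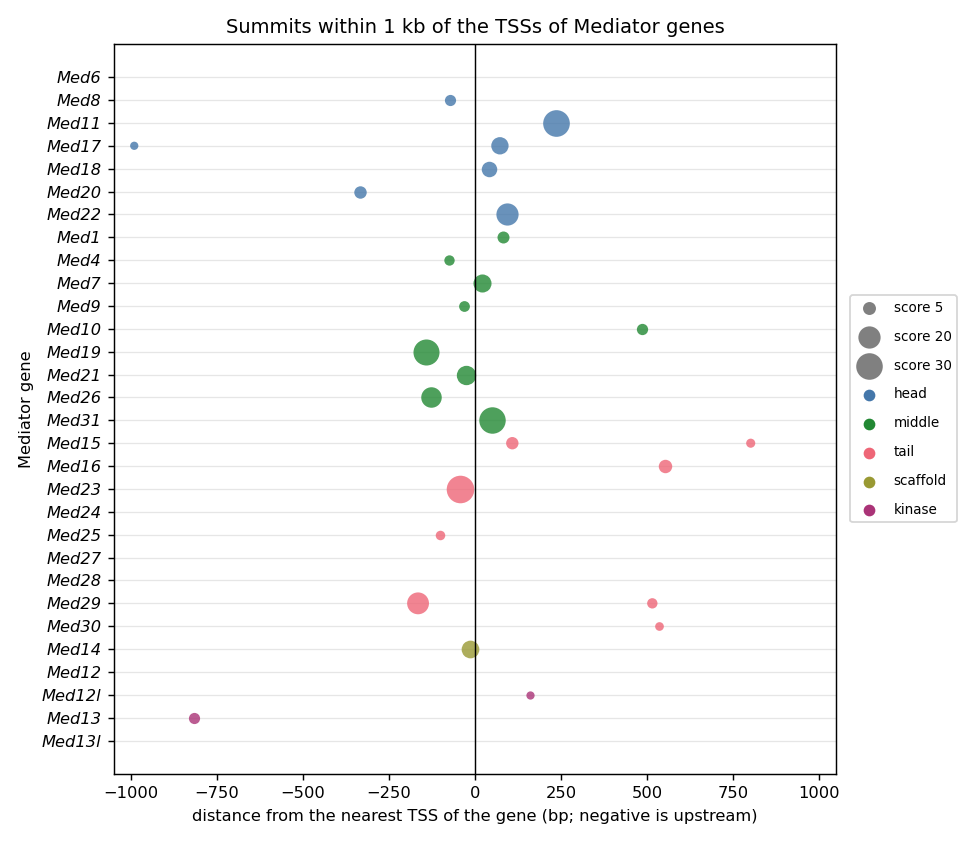
Position of every summit within 1 kb of a TSS of each Mediator gene (horizontal axis, bp from the nearest TSS of the gene, negative upstream; 1 row per gene, point area rising with score, colour by module). Of the highest summits 12 lie within 100 bp of the TSS, and Med13 stands apart at -818 bp.

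Some of these summits cannot be given to Mediator alone. At 6 of the 24 genes (25.0%, against 19.7% of all genes with a promoter summit) the TSS of another gene was within 1 kb of a promoter summit. The neighbours included Bysl and Gm20517 at Med20, Rpl7a at Med22, Tmx2 at Med19, 4930563E22Rik at Med31 and Paf1, a subunit of an elongation complex, at Med29. Of the 7 Mediator promoters with a score of at least 20, Med31, Med19, Med22 and Med29 were in this group and Med23, Med11 and Med26 were not. With each summit given only to the gene of its nearest TSS, 21 Mediator genes (70.0%, against 41.4% of all genes) kept one, and Med19 and Med20 were among those that lost theirs. Med29 kept only the summit with a score of 4.16, since that of 23.1 was nearer to Paf1. The highest scores at promoters with no such neighbour were those of Med23 and Med11.

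Wider windows added few members. Within 10 kb of a TSS 25 of 30 genes (83.3%) had a summit, the added gene being Med13l, against 53.9% of all genes. Within 50 kb 28 of 30 (93.3%) had one, against 70.9%, and Med6 and Med12 did not. The number of summits within 50 kb ran from 0 to 29. Med16, the top of this range, has 7 other genes with a TSS in the same window, Med25 with 26 summits has 6, and Med29 with 21 has 6. The 2 numbers did not always go together. Med22 with 14 summits has 7 such genes, Med19 with 6 summits has 6, and Med9 with 12 summits has 1. Of 179 pairs of a Mediator gene and a summit within 50 kb, only 42 (23.5%) had the Mediator TSS as the nearest one, against 32.7% over all genes. Most of what lies within 50 kb of Mediator genes is thus nearer to other genes. Around Med22 there were 9 summits within 10 kb, among them those at the Surf6 promoter with a score of 13.4 and within 1 kb of the TSSs of Surf1 and Surf2 with a score of 8.99.

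The gene bodies of 19 Mediator genes (63.3%) held a summit, against 39.7% of all genes. The share of all genes with a body summit rises with gene length, so genes were divided into tertiles at 8502 and 30541 bp. In the shortest tertile 6 of 9 Mediator genes had a body summit (66.7%, against 25.3% of all genes of that length), in the middle tertile 7 of 12 (58.3%, against 42.1%) and in the longest 6 of 9 (66.7%, against 51.6%). The 32 summits in Mediator gene bodies came to 2.40 per 100 kb, against 1.90 over all genes. Of these, 14 were within 1 kb of a TSS of the same gene. Leaving those out, 10 genes (33.3%) had a body summit, against 24.6% of all genes. The summits left came to 1.35 per 100 kb of full gene length, against 1.31. Bases within 1 kb of a TSS stayed in that length. By length these were 2 of 9 genes in the shortest tertile (22.2%, against 13.3%), 4 of 12 in the middle (33.3%, against 24.3%) and 4 of 9 in the longest (44.4%, against 36.4%). Per full length of gene, the number of body summits beyond the promoter window in Mediator genes thus lay next to that of all genes.

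The highest numbers of body summits were not in the longest genes. Med29 (7.444 kb) and Med25 (15.660 kb) held 4 each and Med22 (5.376 kb) held 3. Med25, a tail subunit that takes up nuclear receptor and other activator signals, had its 4 between 1054 and 6252 bp downstream of the TSS, with scores of 2.58 to 6.69. In contrast Med23, Med14 and Med13, of 43.5 kb to 90.6 kb, held none. Med12l, of 311.439 kb, held 2. The summit in its intron 38 had a score of 14.4, above that at its promoter, and the nearest TSS, 23596 bp away, was that of P2ry12, a purinergic receptor gene. In Med9 and Med26 the inner summits were in the 3′ UTR, nearer to the TSS of Rasd1 and Slc35e1.

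**Figure D4:**
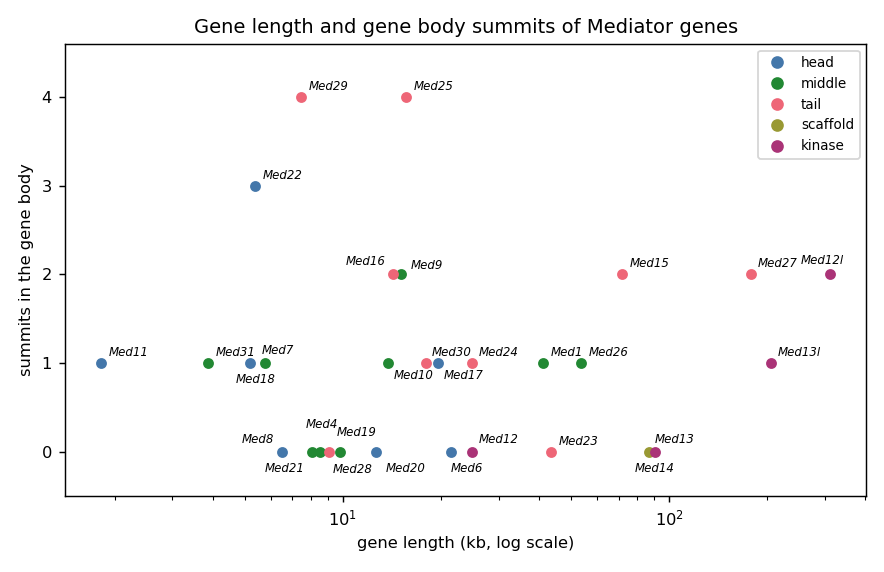
Gene length (horizontal axis, kb, log scale) and number of summits between the start and end of each Mediator gene (vertical axis), coloured by module. Med29 and Med25 held 4 summits, and of the 9 genes longer than 30541 bp none held more than 2.

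What Mediator promoters share in sequence was then described, from 250 bases before to 50 bases from the TSS onward. A CpG-rich promoter, with at least 55% GC and an observed-to-expected CpG ratio of at least 0.6, was found at 20 of 30 Mediator genes (66.7%) and at 45.3% of all genes. Of these 20, 17 had a promoter summit (85.0%), against 72.4% of all CpG-rich genes, and Med6, Med12 and Med13l did not. Of the other 10 Mediator genes 7 had one (70.0%), against 22.5% of all such genes, and Med24, Med27 and Med28 did not. Several of the 7 fell just short of a cutoff: Med11 (54.3% GC, ratio 0.588), Med18 (53.3% GC), Med29 (53.7% GC) and Med31 (ratio 0.541). At Med19, Med29 and Med31 the TSS of another gene was also within 1 kb of a promoter summit. A share over all genes equally near the cutoffs was not computed. All 4 kinase genes had CpG-rich promoters, with a median GC of 73.7%, as against 4 of 9 in the tail, with 53.7%.

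Short patterns were searched on both strands at the 35 TSS windows of Mediator genes and the 26032 of all genes. The ETS pattern CCGGAAG was in 11 windows (31.4%) of 10 genes, against 11.4% of all windows. The NRF1 pattern GCGCATGC was in 4 windows (11.4%, against 3.47%), of Med4, Med15 and Med17, and the YY1 pattern AAGATGGCG in 2 (5.71%, against 1.85%), of Med1 and Med24. The SP/KLF pattern GGGCGG was in 60.0% (47.5%) and the NF-Y pattern CCAAT in 42.9% (37.6%). The E-box CACGTG was in 8.57% (8.01%) and the TATA pattern TATAAA in 8.57% (12.1%). The CRE pattern TGACGTCA, to which cAMP-responsive factors bind, was in 1 window, that of Med21 (2.86%, against 2.38%). Several windows belong to the same gene and overlap, and a match is letters only, not a bound site. The NRF1 match of Med15, for instance, is counted from both of its TSSs. The ETS, NRF1 and YY1 patterns, like some others here, contain CG. CpG-rich promoters are more frequent among Mediator genes (66.7%) than among all genes (45.3%). Shares among CpG-rich windows were not computed, and whether the higher shares go with CpG content was not tested. Among the 10 genes with the ETS pattern, Med6 was the one without a promoter summit. Of all Mediator genes 80.0% had such a summit, and the share among all genes with the pattern was not computed. No link between the pattern and a summit is read from this count.

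The 150 bases before the TSS are shown for 4 more genes, chosen after their values were seen, because 2 carry several of these patterns and have a promoter summit, and 2 have no summit within 50 kb. They are Med21 (chr6:146642429-146642578, plus strand), Med4 (chr14:73509899-73510048, plus strand), Med6 (chr12:81595009-81595158, minus strand) and Med12 (chrX:101273941-101274090, plus strand). Capitals again mark pattern matches.
Med21: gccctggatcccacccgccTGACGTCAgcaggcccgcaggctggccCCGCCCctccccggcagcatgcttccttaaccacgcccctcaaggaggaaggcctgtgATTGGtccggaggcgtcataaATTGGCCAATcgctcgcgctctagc
Med4: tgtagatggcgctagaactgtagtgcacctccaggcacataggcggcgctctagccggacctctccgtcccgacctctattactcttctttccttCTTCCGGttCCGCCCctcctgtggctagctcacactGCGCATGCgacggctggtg
Med6: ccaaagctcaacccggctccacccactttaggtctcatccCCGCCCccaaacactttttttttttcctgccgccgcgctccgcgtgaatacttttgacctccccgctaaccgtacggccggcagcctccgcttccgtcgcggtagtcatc
Med12: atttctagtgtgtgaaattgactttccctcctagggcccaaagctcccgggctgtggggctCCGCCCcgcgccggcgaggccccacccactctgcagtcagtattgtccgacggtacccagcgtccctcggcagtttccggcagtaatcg
In Med21 the CRE match ran from -131 to -124, and 3 NF-Y matches lay between -46 and -16, with the summit at -28 bp among them. In Med4 the ETS match, on the other strand, ran from -55 to -49 and the NRF1 match from -19 to -12, with the summit at -76 bp. Med6 and Med12 had 1 SP/KLF match each in these bases, which were 60.0% and 62.7% GC, and no summit within 50 kb.

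Other parts of the transcription machinery were set beside Mediator by counts. Of 13 RNA polymerase II subunit genes 11 had a promoter summit (84.6%), with Polr2c and Polr2k lacking one and a median highest score of 8.65. Of 31 general transcription factor genes 27 had one (87.1%, median 9.78), and of 14 Integrator genes all 14 (100%, median 19.8). The Mediator share of 80.0% and median of 9.42 lay next to those of the polymerase and the general factors. The Wilson intervals of the shares, 57.8% to 95.7%, 71.1% to 94.9% and 78.5% to 100%, all overlapped that of Mediator.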

How the data were processed

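The ATAC-seq libraries were from BAT of 2 WT and 2 Dot1l-BKO mice. Per the submitters' processing notes and the methods of the study, adapters were trimmed with cutadapt 1.2.1, reads were aligned to mm10 with BWA, and peaks were called with MACS2 2.1.1 in ATAC mode. The authors deposited 1 list for the 4 libraries, which gives the position of each peak summit and the -log10 of its q-value. Whether reads were shifted for the transposase is not given in the sources used here. The RNA-seq libraries were not used, and 1 neighbouring gene is not reported here.

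Distances of summits were taken to the TSSs of curated RefSeq mRNAs (GRCm38.p6, the mm10 build, 25999 distinct TSSs). Promoter windows were 1 kb on each side of a TSS, and a gene body ran from the outermost start to the outermost end of the mRNAs. Sequences came from the RefSeq genome of that build. The modules and comparison lists were fixed by symbol. The members and lists were chosen with earlier results of these data known. All members are named. Sequences are shown for the highest promoter score of the head, the tail and the kinase genes named Med, with 4 more genes chosen later. Those of the middle and scaffold modules overlap exons. No test was made, since there are no values per library. Wilson intervals (95%) cover counting error only. Alternatives changed the score minimum (5 or 10), the window, the transcripts, the merging of summits (500 bp), the gene given a summit and the modules. The window counts were checked on simulated positions. The work was done in Python 3.11.15 with pysam 0.24.0, pandas 2.3.3, numpy 2.4.6, matplotlib 3.10.9 and scipy 1.17.1.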

Additional observations from a re-analysis of the deposited data

How the results depend on the processing

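No paired analysis was possible because libraries have no values of their own here, and no replicate could be left out either. Of 47 alternative values 38 stayed within 1.5 times the main one. The other 9 came from fewer summits, a smaller region or more genes, by construction. With a score of at least 10, a summit was found at 12 Mediator genes within 1 kb of a TSS, 15 within 10 kb and 7 in the gene body, and at 5 middle, 2 tail and 0 kinase genes within 1 kb. With a score of at least 5, 1 kinase gene had one within 1 kb. With Cdk8, Cdk19 and Ccnc counted in the kinase module, a choice made after seeing the data, 5 of its genes had one. Without positions within 1 kb of a TSS, 10 genes had a summit in the gene body. The Mediator share within 1 kb stayed above that of all genes in each of the 7 alternatives for which both were computed, from 40.0% against 23.5% (score of at least 10) to 83.3% against 50.03% (5 kb on each side). The median score was 14.0 in place of 9.42 with a window of 500 bp, which left out Med13, Med16 and Med30. Unknown depth and an unknown control keep low-scoring summits, and genes without one, from being read as closed chromatin.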
